A study of Mus musculus with 18 samples.

Results

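Expression of 8 genes of the adrenergic receptor family was described in mouse adipose depots by RNA-seq. These were the beta receptor genes Adrb1 and Adrb3, the alpha receptor genes Adra1a, Adra1b and Adra1d, and the alpha receptor genes Adra2a, Adra2b and Adra2c. Members were found by an exact match of the gene symbol in each of the 18 deposited tables, which share 45151 symbols, and all 8 were present in all 18. The samples were 6 of mature adipocytes from inguinal white fat (iWAT), 6 of mature adipocytes from epididymal white fat (eWAT) and 6 of brown fat (BAT). All came from wild-type C57BL/6 (C57BL/6J in the study's methods) male mice aged 16 weeks that ate regular chow, and no group carried a transgene or received an agent. The white depots were digested with collagenase and only the cells that floated were kept. BAT was snap-frozen without digestion and so holds every cell type of the tissue, and depot and preparation cannot be told apart. In bulk samples, fewer cells of a type and less RNA per cell cannot be told apart either.

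Adrenergic receptors are seven-pass membrane proteins that bind noradrenaline released by sympathetic nerves and adrenaline from the adrenal gland. Beta receptors couple mainly to Gs, which raises cAMP and, in adipocytes, drives lipolysis and, in brown fat, heat production. Adra2 receptors couple mainly to Gi and lower cAMP, and Adra1 receptors couple mainly to Gq, which acts through phospholipase C and calcium. Adrb3 is the beta receptor best known from rodent adipocytes, and the balance of Gs-coupled and Gi-coupled receptors is a known determinant of the lipolytic response to catecholamines.

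Expression was measured as RPKM, a read number scaled to the length of the row and the depth of the library. This allows levels of different genes to be set side by side on the rows used. In iWAT and BAT the deposited tables hold 1 row per gene with its exons merged, whereas the eWAT tables hold 1 row per transcript, so the transcript with most reads was used for eWAT. Row kind and eWAT therefore cannot be told apart unless a receptor has the same row in all tables, which was the case for Adrb1, Adra1d, Adra2a, Adra2b and Adra2c. For the Adra2 genes the eWAT level was read from a slightly shorter transcript with the same reads as the shared row. For Adrb3 the merged row has 2893 bp and the eWAT transcript 2795 bp, whereas for Adra1a they have 9333 bp and 4118 bp.

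The reads behind the RPKM numbered 22929576 to 34512470 per sample. As checks of the labels, Ucp1, the uncoupling protein of brown adipocytes, lay between 969 and 1509 RPKM in BAT, between 0.494 and 5.76 in iWAT and between 0.127 and 0.551 in eWAT. Adipoq, the adipocyte hormone adiponectin, lay between 868 and 2351 RPKM in the white adipocyte samples and between 258 and 394 in BAT. Each list of markers of other cells had reads in every depot, except that 5 of 5 epididymis markers were at 0 reads in iWAT. The eWAT sample of mouse 15 stood apart, with a summed level of 6 macrophage markers of 1842 RPKM against 125 to 437 RPKM in the other eWAT samples, and the BAT sample of mouse 12 had a summed level of 5 skeletal muscle markers of 1340 RPKM against 0.550 to 119 RPKM in the other BAT samples.

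The receptor genes lie on several chromosomes of the mm9 assembly. Adrb1 (chr19:56796862-56799352, plus strand), Adra2a (chr19:54119672-54123472, plus strand), Adra2b (chr2:127188944-127192957, plus strand) and Adra2c (chr5:35621215-35624412, plus strand) each have 1 exon in the deposited row. Adrb3 (chr8:28336248-28340060, minus strand), Adra1a (chr14:67254088-67390005, plus strand) and Adra1b (chr11:43588108-43714712, minus strand) have 5 exons, and Adra1d (chr2:131371093-131388021, minus strand) has 2. Of the 8 genes, Adra1d was the only one whose annotated exons lie under an exon of another gene, over 147 bases. That gene is Gm14285 on the opposite strand, and the counting is not stated to use strand, so reads of the pair cannot be told apart there.

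The 2 receptors that differed most between eWAT and BAT in the fit on identical rows, Adrb1 and Adra2a, differed in opposite directions, and the 250 bases before the RefSeq start of each are shown for that reason, chosen after their values were seen. RefSeq promoters (table build GRCm38.p6) were found for 5 of the 8 receptors, and those printed have 1 exact match each in mm9, on the plus strand at chr19:56796357-56796606 for Adrb1 and chr19:54119499-54119748 for Adra2a. The deposited Adrb1 row starts downstream of this window, and the deposited Adra2a row starts inside it. Capitals mark exact matches, on either strand, to any of 6 motifs searched. These were the TATA box (TATAAA), the cAMP response element (TGACGTCA), an E-box (CACGTG), a GC box (GGGCGG), the CCAAT box (CCAAT) and a nuclear receptor half-site (AGGTCA), and no matches overlapped here.
Adrb1: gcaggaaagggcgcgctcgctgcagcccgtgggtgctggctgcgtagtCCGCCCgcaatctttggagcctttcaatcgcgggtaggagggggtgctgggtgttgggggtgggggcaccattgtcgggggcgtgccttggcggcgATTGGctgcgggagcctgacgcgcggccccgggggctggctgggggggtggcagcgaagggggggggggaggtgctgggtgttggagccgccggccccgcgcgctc
Adra2a: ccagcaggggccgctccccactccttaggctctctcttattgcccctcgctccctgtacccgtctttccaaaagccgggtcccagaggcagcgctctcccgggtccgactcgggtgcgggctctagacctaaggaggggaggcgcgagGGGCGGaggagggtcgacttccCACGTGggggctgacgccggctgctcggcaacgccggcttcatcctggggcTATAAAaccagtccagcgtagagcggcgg
The Adra2a window holds GGGCGG at position -102, CACGTG at position -80 and TATAAA at position -29 from the start. The Adrb1 window holds a GGGCGG match at position -202 and a CCAAT match at position -106, both on the opposite strand, so that the capitals show their reverse complements. Of 32851 RefSeq promoter windows of this length, 12.4% hold the TATA box letters, 6.02% the E-box, 32.7% the GC box, 33.8% the CCAAT box, 14.02% the half-site and 1.55% the cAMP response element. The windows are shown as description, and the expression data carry no measurement at them.

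Adrb3 stood first in the order of RPKM in every depot, and the next receptor was lower in 6 of 6 samples of each. In iWAT the order by median was Adrb3, Adra1d, Adra1a, Adrb1, Adra1b, Adra2a, Adra2b and Adra2c. In eWAT it was Adrb3, Adra1d, Adra1a, Adrb1, Adra2a, Adra1b, Adra2b and Adra2c. In BAT it was Adrb3, Adrb1, Adra1a, Adra1d, Adra2c, Adra2b, Adra1b and Adra2a. On these rows Adrb1 stood behind Adra1d and Adra1a in both white depots and next to Adrb3 in BAT, and Adra2a stood last in BAT. The place of Adra1a in iWAT and BAT depends on its merged row of 9333 bp, whereas its most-read eWAT transcript has 4118 bp. Over the BAT samples Adra1a had 12318 reads, and Adrb1 had 3843 on a row of 2491 bp. Several neighbours were not separated. Adra1a exceeded Adrb1 in 5 of 6 iWAT samples, Adra1d exceeded Adra1a in 5 of 6 eWAT samples, and Adrb1 exceeded Adra1a in 4 of 6 BAT samples, with overlapping ranges in each case. Among the Adra2 genes and Adra1b, the ranges of all neighbours in the order overlapped.

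**Figure D1:**
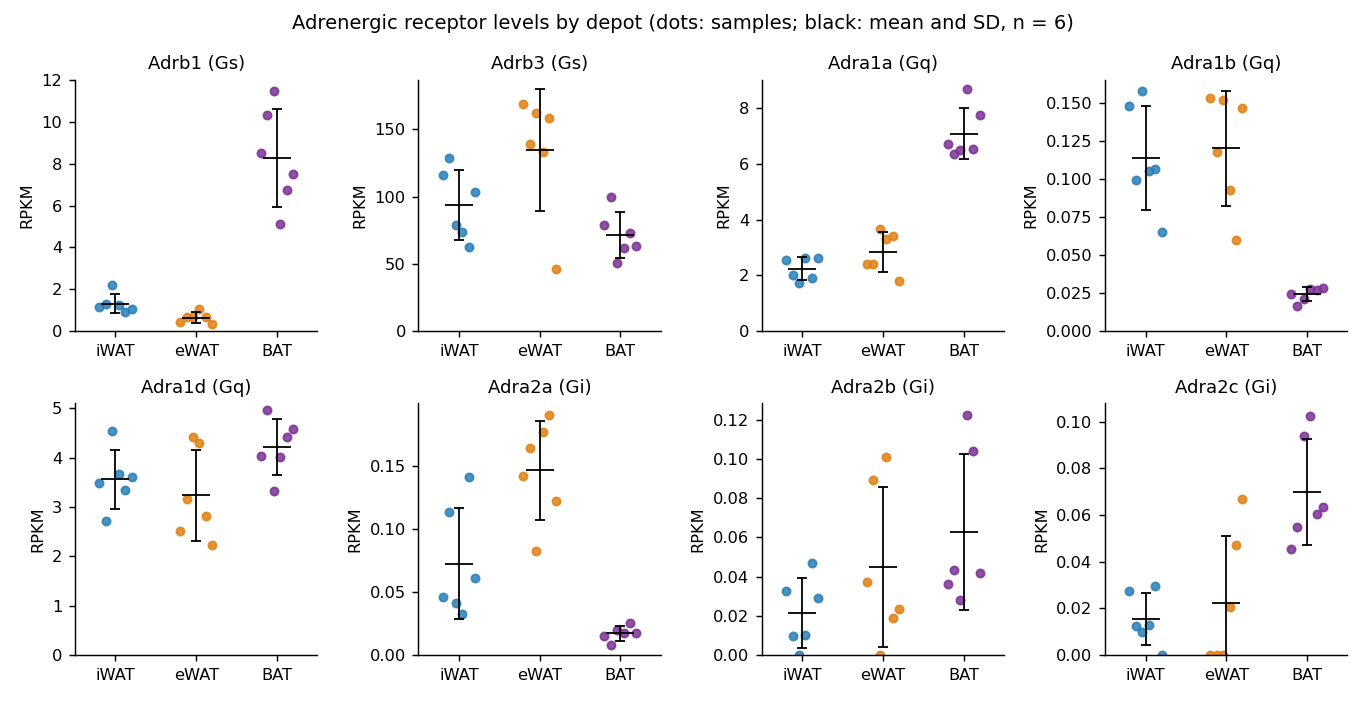
Deposited RPKM of the 8 receptors in each sample (dots) by depot, with the mean and SD (black, n = 6 per depot), on a separate linear axis for each gene. Adrb1 and Adra1a are higher in all 6 BAT samples than in any white adipocyte sample, whereas Adra1b and Adra2a are lower in all 6 BAT samples.

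Among the Gs-coupled receptors, Adrb3 was abundant in all depots and Adrb1 was highest in BAT. Adrb3 was 93.9 ± 26.0 RPKM (SD, n = 6) in iWAT, with a lowest value of 62.8, a median of 91.2 and a highest of 129. In eWAT it was 135 ± 45.5 RPKM (SD, n = 6), with a lowest of 46.1, a median of 149 and a highest of 169. In BAT it was 71.3 ± 17.0 RPKM (SD, n = 6), with a lowest of 50.6, a median of 68.2 and a highest of 99.7. The ranges of the depots overlapped, and 1 low sample, that of mouse 15, set the lower end in eWAT, where the other samples lay between 133 and 169. That sample also had the lowest summed level of 8 adipocyte markers in eWAT, 11686 RPKM against a median of 18564, and the high macrophage markers given above. The part of these cells in its Adrb3 level was not tested.

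Between iWAT and BAT, on the same merged row, the log2 fold change of Adrb3 was 0.14 (SE 0.20, 95% interval -0.29 to 0.56) and did not pass the threshold (adjusted p = 0.549, edgeR's quasi-likelihood test with Benjamini-Hochberg adjustment). The eWAT values rest on a transcript row, and the fit by symbol that includes them is shifted towards eWAT as a whole. Over all 18383 symbols tested, its median log2 fold change was 0.60 for eWAT against BAT and -0.35 for iWAT against eWAT. In the fit on identical rows the median was 0.08 for eWAT against BAT. Adrb1 (-3.93) and Adra1d (-0.61) had the same rounded values in both fits, because both fits use the same rows and scaling for these genes. In the fit by symbol Adrb3 had a log2 fold change of 0.69 (SE 0.25, 95% interval 0.17 to 1.21, adjusted p = 0.0172 by edgeR's quasi-likelihood test) for eWAT against BAT. This value lay near the shift of all symbols, but the Adrb3 rows span the same positions and differ little in length (2893 bp and 2795 bp). How far the shift reaches Adrb3 was not tested. The call was lost without BAT mouse 8, 11, 12 or 13, with log2 fold changes of 0.54 to 0.60 and adjusted p between 0.0515 and 0.0740 by the same edgeR test. For iWAT against eWAT the log2 fold change was -0.46 (SE 0.25, adjusted p = 0.133 by edgeR), and it passed the threshold without eWAT mouse 15 (-0.63, adjusted p = 0.00808 by edgeR) and with the eWAT transcript of highest RPKM (-0.70, adjusted p = 0.0187 by edgeR).

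Adrb1 was 1.31 ± 0.453 RPKM (SD, n = 6) in iWAT, with values of 0.910 to 2.19 and a median of 1.19. In eWAT it was 0.644 ± 0.251 RPKM (SD, n = 6), with values of 0.331 to 1.06 and a median of 0.663. In BAT it was 8.28 ± 2.33 RPKM (SD, n = 6), with values of 5.13 to 11.5 and a median of 8.01. No BAT sample overlapped a white adipocyte sample, and the iWAT and eWAT ranges overlapped. The values rest on 65 to 175 reads per sample in iWAT, 27 to 80 in eWAT and 390 to 882 in BAT.

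Adrb1 was lower in both white depots than in BAT, and lower in eWAT than in iWAT. Its log2 fold change was -2.95 (SE 0.24, adjusted p = 1.06e-07) for iWAT against BAT and -3.93 (SE 0.27, adjusted p = 2.05e-10) for eWAT against BAT, both by edgeR's quasi-likelihood test with Benjamini-Hochberg adjustment. For iWAT against eWAT it was 1.07 (SE 0.26, adjusted p = 0.00922, same edgeR test). That last difference did not pass the threshold on a log2(RPKM + 1) scale (0.48, adjusted p = 0.0561 with limma), nor in the fit by symbol with the eWAT transcript of highest RPKM (0.62, adjusted p = 0.0692, edgeR). The highest iWAT value, 2.19 in mouse 12, lay apart from the others, which were between 0.910 and 1.32.

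The make-up of the Gs-coupled receptors therefore differed with depot on the RPKM scale. Adrb1 made up 1.46 ± 0.660% (SD, n = 6) of the Adrb1 and Adrb3 sum in iWAT and 0.514 ± 0.199% in eWAT, against 10.7 ± 3.93% in BAT. The ratio of Adrb3 to Adrb1 lay between 36.3 and 102 in iWAT, between 125 and 376 in eWAT and between 4.42 and 12.1 in BAT. The 3 ranges did not overlap. These shares are a description of 2 genes and cover no other beta receptor, and the eWAT share rests on a transcript row for Adrb3.

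Among the Gq-coupled receptors, Adra1a and Adra1d were measured well and Adra1b was near the floor. Adra1a was 2.24 ± 0.414 RPKM (SD, n = 6) in iWAT, with values of 1.72 to 2.64 and a median of 2.28. In eWAT it was 2.84 ± 0.728 RPKM (SD, n = 6), with values of 1.81 to 3.67 and a median of 2.87. In BAT it was 7.08 ± 0.923 RPKM (SD, n = 6), with values of 6.37 to 8.67 and a median of 6.62. All BAT samples lay above all white adipocyte samples. Adra1a was lower in iWAT than in BAT by a log2 fold change of -1.92 (SE 0.13, adjusted p = 1.09e-08, edgeR's quasi-likelihood test with Benjamini-Hochberg adjustment). For eWAT against BAT the fit by symbol gave -1.54 (SE 0.16, adjusted p = 5.42e-08, edgeR), below its shift of 0.60, but the 8 Adra1a transcript rows in eWAT had mean levels between 1.39 and 2.90 RPKM, so this value depends on the row. Between iWAT and eWAT it was -0.29 (SE 0.16, 95% interval -0.62 to 0.05, adjusted p = 0.144, edgeR), with an adjusted p of 0.0444 without eWAT mouse 15.

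The summed level of 5 skeletal muscle markers lay between 0.550 and 1340 RPKM in the BAT samples, and Adra1a lay between 6.37 and 8.67 RPKM. In the BAT sample of mouse 12, with 1340 RPKM of these markers, Adra1a was 6.53 RPKM, and in that of mouse 7, with 0.550 RPKM, it was 6.37 RPKM. The highest Adra1a value, 8.67 RPKM, was that of mouse 11, with 8.03 RPKM of these markers. The summed level of 6 smooth muscle and pericyte markers lay between 20.3 and 111 RPKM in iWAT, between 99.8 and 193 RPKM in eWAT and between 66.6 and 113 RPKM in BAT, with all 6 markers detected in each depot. These markers did not share 1 order. By mean, Acta2, Tagln and Pdgfrb were highest in eWAT, read from transcript rows, and Myh11, Cnn1 and Rgs5 were highest in BAT. Mean Acta2 was 60.8 RPKM in eWAT, 10.1 in iWAT and 3.36 in BAT. The part of skeletal muscle, smooth muscle or pericytes in the Adra1a difference was not tested.

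Adra1d differed less between depots than Adra1a, and all 3 ranges overlapped. It was 3.56 ± 0.594 RPKM (SD, n = 6) in iWAT, with values of 2.71 to 4.55 and a median of 3.55. In eWAT it was 3.24 ± 0.922 RPKM (SD, n = 6), with values of 2.23 to 4.43 and a median of 2.99. In BAT it was 4.22 ± 0.568 RPKM (SD, n = 6), with values of 3.32 to 4.96 and a median of 4.23. Its log2 fold change was -0.51 (SE 0.11, adjusted p = 0.00104) for iWAT against BAT and -0.61 (SE 0.16, adjusted p = 0.00201) for eWAT against BAT, and 0.19 (SE 0.16, 95% interval -0.14 to 0.51, adjusted p = 0.484) for iWAT against eWAT, all by edgeR's quasi-likelihood test. The call against BAT in iWAT was lost without scaling between libraries (-0.24, adjusted p = 0.0985, edgeR) and with limma on log2(RPKM + 0.1) (-0.24, adjusted p = 0.0884) or log2(RPKM + 1) (-0.20, adjusted p = 0.0902). Without scaling the median log2 fold change of all 19733 rows moved from 0.01 to 0.27, and with upper-quartile scaling it moved to -0.11, where Adra1d was at -0.64.

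Adra1b, whose product also signals through Gq, was counted with 6 to 18 reads per sample in iWAT, 4 to 13 in eWAT and 2 or 3 in BAT. This corresponded to 0.114 ± 0.0341 RPKM (SD, n = 6) in iWAT, to 0.120 ± 0.0379 RPKM in eWAT and to 0.0243 ± 0.00469 RPKM in BAT. All white adipocyte samples lay above all BAT samples. As 3 reads correspond to 0.0246 to 0.0451 RPKM for this gene, the BAT level is at the floor. Over 6 samples each, 66 reads in iWAT stood against 16 in BAT, a ratio of 4.20 per unit of depth (95% interval 2.41 to 7.78), an interval that covers counting error only. Adra1b did not enter the main fit of iWAT against BAT because too few samples had 10 reads, and in the fit without that filter its log2 fold change was 1.98 (SE 0.35, adjusted p = 0.000164, edgeR). Adra1b entered the fit by symbol only through white adipocyte samples, since no BAT sample had over 3 reads, so its call there is tied to that filter. The value was 2.05 (SE 0.31, adjusted p = 6.78e-06, edgeR) for eWAT against BAT, above the shift of 0.60, and 2.05 (adjusted p = 4.03e-05, edgeR) without the filter. It was -0.04 (SE 0.26, 95% interval -0.59 to 0.51, adjusted p = 0.910, edgeR) for iWAT against eWAT.

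**Figure D2:**
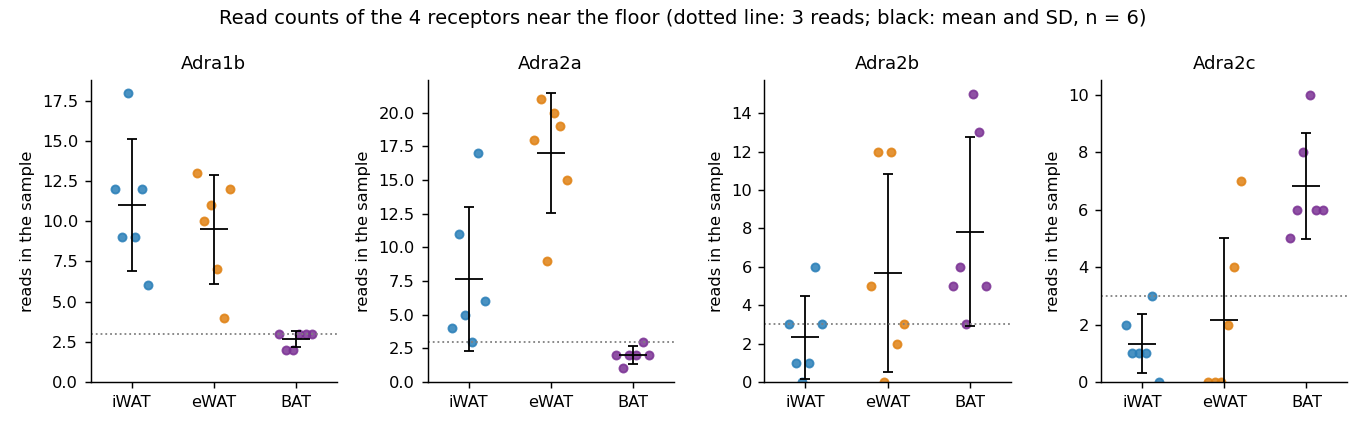
Reads per sample (dots) of the 4 receptors with the lowest counts by depot, with the mean and SD (black, n = 6) and a dotted line at 3 reads. Adra1b and Adra2a have 1 to 3 reads in every BAT sample and 3 to 21 in every white adipocyte sample, whereas Adra2c has 5 to 10 reads in BAT and 0 to 7 in white adipocytes.

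The Gi-coupled receptors were all low. Adra2a, the Gi-coupled receptor with most reads in white adipocytes, was at 0.0724 ± 0.0441 RPKM (SD, n = 6) in iWAT, at 0.146 ± 0.0396 RPKM in eWAT and at 0.0172 ± 0.00580 RPKM in BAT. The samples held 3 to 17 reads in iWAT, 9 to 21 in eWAT and just 1 to 3 in BAT, with totals of 46, 102 and 12. Every white adipocyte sample lay above every BAT sample, and the iWAT and eWAT ranges overlapped. The depth-adjusted ratio was 3.91 (95% interval 2.04 to 8.10) for iWAT over BAT and 7.31 (95% interval 4.01 to 14.6) for eWAT over BAT, for counting error only.

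Adra2a entered the fit on shared rows only through its white adipocyte samples, since no BAT sample had 10 reads, so its call against BAT is tied to that filter. There its log2 fold change was 2.79 (SE 0.40, adjusted p = 5.27e-06, edgeR's quasi-likelihood test) for eWAT against BAT, and 2.88 (adjusted p = 2.73e-06, edgeR) without the filter. For iWAT against BAT the fit without the filter gave 1.84 (SE 0.48, adjusted p = 0.00452, edgeR). The difference of iWAT from eWAT was -0.91 (SE 0.33, 95% interval -1.60 to -0.21) and did not pass the threshold (adjusted p = 0.0821, edgeR). That call depended on the method. It passed with limma on log2(RPKM + 0.1) (adjusted p = 0.0328), without iWAT mouse 14 (-1.25, adjusted p = 0.0133, edgeR) and in the fit by symbol (-0.93, adjusted p = 0.0263, edgeR), where it was lost again with the mouse as a replicate block (-0.95, adjusted p = 0.0667, edgeR) and without iWAT mouse 12, 13 or 15 or eWAT mouse 14 (-0.88 to -0.78, adjusted p between 0.0521 and 0.0654, edgeR). In iWAT the samples of mice 14 and 11 had the highest Adra2a, 0.141 and 0.113 RPKM, and these samples had the highest and the lowest summed level of 6 endothelial markers, 148 and 25.9 RPKM.

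Adra2b and Adra2c ran the other way in read number. Summed over each depot, Adra2b had 14 reads (iWAT), 34 (eWAT) and 47 (BAT), at 0.0214 ± 0.0176, 0.0451 ± 0.0409 and 0.0627 ± 0.0400 RPKM (SD, n = 6 each), and its ranges overlapped in all depots. Adra2c had 8, 13 and 41 reads, at 0.0153 ± 0.0112, 0.0224 ± 0.0286 and 0.0700 ± 0.0228 RPKM (SD, n = 6 each), and its iWAT and BAT ranges did not overlap. Neither gene entered the main fits. Without the filter, the log2 fold change for iWAT against BAT was -1.68 (SE 0.58, adjusted p = 0.0253) for Adra2b and -2.27 (SE 0.50, adjusted p = 0.00109) for Adra2c, both by edgeR. For eWAT against BAT it was -0.61 (SE 0.56, 95% interval -1.75 to 0.52, adjusted p = 0.400) for Adra2b and -1.70 (SE 0.65, adjusted p = 0.0422) for Adra2c, both by edgeR. The ratio of eWAT to BAT reads was 0.622 (95% interval 0.388 to 0.988) for Adra2b and 0.273 (95% interval 0.134 to 0.519) for Adra2c. These intervals cover counting error only, and the eWAT samples held 0 to 12 reads of Adra2b.

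The reads of Adra2c in eWAT were not spread over the samples. Those of mice 15, 14 and 13 had 7, 4 and 2 reads, and those of mice 7, 8 and 11 had 0. The same 3 samples held the epididymis markers, with summed levels of 66.1, 82.8 and 3.51 RPKM against at most 0.00848 RPKM in the other 3. The part of epididymal cells in the Adra2c reads was not tested. Finding 0 reads allows up to 3 reads in each of the other 3 samples, or 0.0276 to 0.0324 RPKM at their depths.

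**Figure D3:**
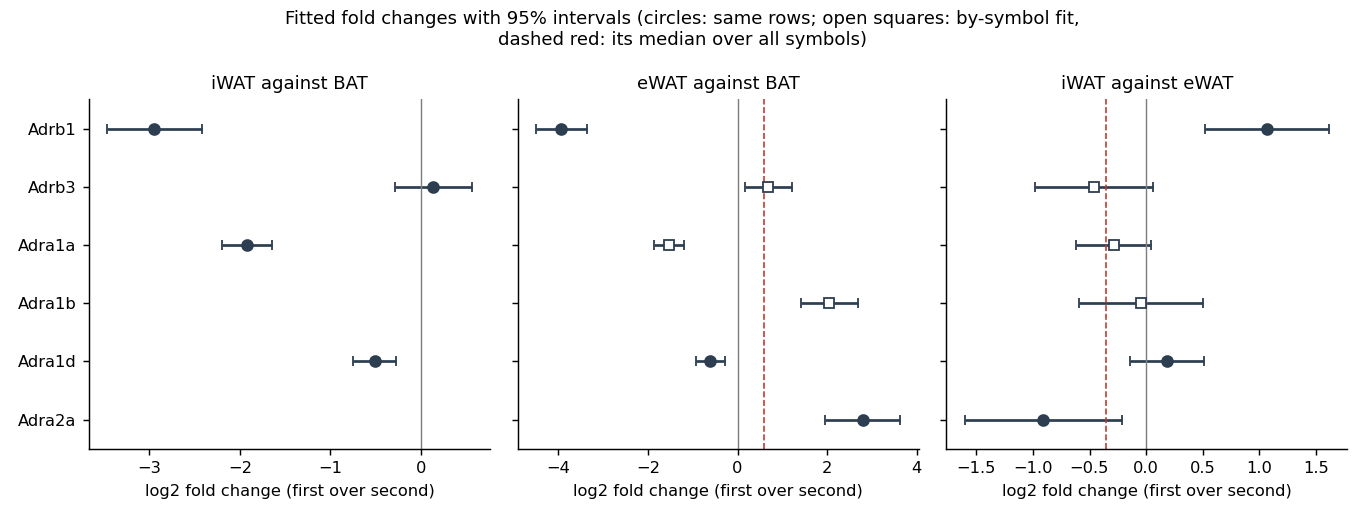
Log2 fold changes with 95% intervals for the receptors that entered the main fits, with circles for identical rows and open squares for the fit by symbol, whose median over all symbols is the dashed line. Adrb1 and Adra1a lie below 0 against BAT in both white depots. For eWAT against BAT, Adra1b (open square) lies above 0 and above the dashed line, and Adra2a (circle) lies above 0.

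Over the family, 4 of the 8 receptors entered the main fit of iWAT against BAT, and 3 of these were lower in iWAT and 0 higher. Of all 19733 rows in that fit 67.6% were called, with 34.0% of all rows higher and 33.6% lower in iWAT, so being called does not set these receptors apart. The median log2 fold change of the 4 was -1.22, against 0.01 over all rows. On shared rows, 3 of the 8 entered, and all of these were called for eWAT against BAT (2 lower, 1 higher), where 67.8% of 5733 rows were called, 35.3% as higher and 32.6% as lower. Without the filter on reads 4 of the 5 receptors on shared rows were called, where 30.8% of 19580 rows were. Between iWAT and eWAT 1 of these 3 was called, where 12.9% of the same rows were called (6.49% higher in iWAT, 6.37% lower), or 8.32% with the mouse as a replicate block. Adrb1 was also the 1 call there without the filter, where 4.31% of rows were called. In the fit by symbol 6 of the 8 entered, and 6 were called for eWAT against BAT (3 higher, 3 lower) and 2 for iWAT against eWAT (1 higher, 1 lower), where 77.9% and 50.9% of 18383 symbols were called. The latter were 6.28% higher and 44.7% lower in iWAT. Adra1b and Adra2a, 2 of the 3 higher calls against BAT, entered only through white adipocyte samples, and without the filter 7 of 8 receptors were called for eWAT against BAT (3 higher, 4 lower), where 49.2% of 36313 symbols were. For iWAT against eWAT 1 of 8 was then called, where 27.0% were. With the filter on reads left out, 7 of 8 were called for iWAT against BAT (5 lower, 2 higher), where 42.1% of 39622 rows were called.

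The balance of the receptor classes was described by summing RPKM within each class in each sample. Adrb1 and Adrb3 together made up 93.7 ± 1.76% (SD, n = 6) of the 8-receptor sum in iWAT and 94.97 ± 1.98% in eWAT, against 87.0 ± 2.53% in BAT. The Adra1 genes made up 6.20 ± 1.73%, 4.85 ± 1.88% and 12.8 ± 2.47%, and the Adra2 genes 0.118 ± 0.0972%, 0.184 ± 0.127% and 0.174 ± 0.0804%. The Adra1 share was between 9.34% and 15.9% in BAT, above the highest white adipocyte sample at 8.24%, which was the eWAT sample of mouse 15. Adra1a made up 38.0 ± 6.02% (SD, n = 6) of the Adra1 sum in iWAT and 45.8 ± 4.46% in eWAT, against 62.5 ± 4.36% in BAT, which did not overlap the white depots. The eWAT shares rest on transcript rows for Adrb3, Adra1a and Adra1b. For Adra1a that row has 4118 bp against 9333 bp in iWAT and BAT, so row kind and eWAT cannot be told apart there. The shares are dominated by Adrb3, and mRNA shares are not receptor numbers. The ratio of the Gs class to the Gi class lay between 293 and 1608 in iWAT, between 219 and 1963 in eWAT and between 277 and 1037 in BAT, and the ranges overlapped. The Gi class in this ratio rests on few reads. At the highest ratio, 1963 in eWAT mouse 11, it held 9 reads of Adra2a and 0 of Adra2b and Adra2c.

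**Figure D4:**
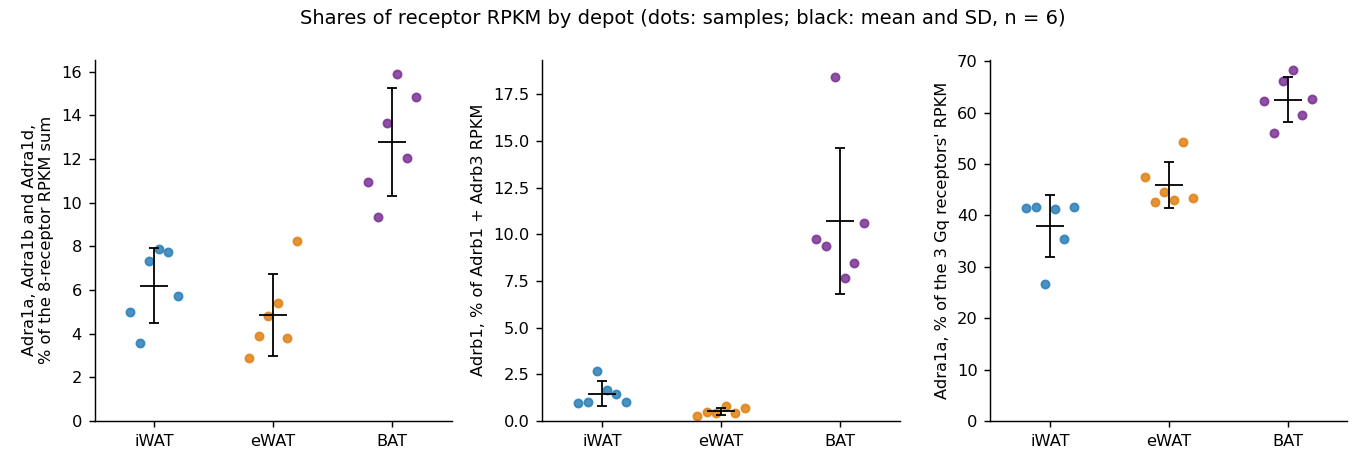
Share of the Adra1 genes in the 8-receptor RPKM sum, share of Adrb1 in the Adrb1 and Adrb3 sum, and share of Adra1a in the Adra1 sum, in percent, in each sample (dots) with the mean and SD (black, n = 6). In each plot the 6 BAT samples lie above all 12 white adipocyte samples. The eWAT shares rest on transcript rows for Adrb3, Adra1a and Adra1b.

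Genes with the most similar profile over the 12 iWAT and BAT samples were found by the root mean square difference of centred log2(RPKM + 0.1) values among 14104 genes with a mean of at least 1 RPKM in iWAT or BAT. For Adrb1 these were BC025920 (0.237), 1700019N12Rik (0.301) and AK079943 (0.315), against a median of 1.53 over all candidates. Their iWAT means of 0.191, 0.127 and 0.354 RPKM lie near the added 0.1, so these distances depend on it. For Adra1a they were AK039291 (0.151), AK040829 (0.158) and Crls1 (0.182, cardiolipin synthase of mitochondria), against a median of 1.04. For Adrb3 they were Rdh10 (0.212, a retinol dehydrogenase), AK044348 (0.214) and LOC100502906 (0.220), against a median of 0.503. For Adra1d the nearest was ENSMUSG00000087524 (0.105), which is Gm14285, the gene that overlaps Adra1d on the opposite strand, followed by Pus3 (0.126) and Kbtbd7 (0.129), against a median of 0.477. The samples share library and depot, so these distances describe likeness over 2 depots only.

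The G protein alpha subunits that the receptors act through were compared between iWAT and BAT on the same merged rows. Of 10 subunits listed, 9 entered the fit, 6 were higher and 2 lower in iWAT, where 34.0% of all rows were higher and 33.6% lower, a background that holds for each list in this fit. The median log2 fold change was 0.96 against 0.01 over all rows. The Gi subunits Gnai1 (3.29, SE 0.12, adjusted p = 6.38e-11), Gnai2 (1.162, SE 0.13, adjusted p = 2.83e-06) and Gnai3 (1.03, SE 0.08, adjusted p = 7.99e-08) were higher in iWAT by edgeR's quasi-likelihood test. Gnai1 lay between 110 and 149 RPKM in iWAT and between 9.31 and 12.8 RPKM in BAT. Gnas, the gene of the stimulatory subunit, was lower in iWAT (-1.40, SE 0.09, adjusted p = 1.08e-08, edgeR), with 28.5 to 37.2 RPKM against 61.7 to 77.2 RPKM in BAT. The merged row holds the exons of all Gnas transcripts, so these values are not specific to 1 transcript. The Gnas level is therefore not set against those of the Gi subunits. Gnal, a close relative of Gnas, was higher in iWAT (1.66, SE 0.18, adjusted p = 1.74e-06, edgeR) at a much lower level of 1.25 to 2.85 RPKM. Gnao1, a Gi-family subunit abundant in nervous tissue, was lower (-1.88, SE 0.11, adjusted p = 3.32e-09, edgeR). The summed level of 6 Schwann cell markers was also lower in iWAT, 7.27 to 13.3 RPKM against 25.3 to 47.9 RPKM in BAT, and its part in the Gnao1 difference was not tested. The directions of these 6 subunits held without scaling and with upper-quartile scaling.

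Genes further along the pathway differed in both directions. Of the 4 phospholipase C beta genes, which act after Gq, Plcb1 was higher in iWAT (2.097, SE 0.12, adjusted p = 2.74e-09, edgeR), whereas Plcb2 (-2.45), Plcb4 (-0.82) and Plcb3 (-0.36) were lower. Plcb2 held 35 reads over the iWAT samples and 186 over the BAT samples. It could not enter the fit through iWAT samples alone, so its call is tied to the filter on reads. Without that filter it was -2.40 (adjusted p = 0.00183, edgeR). The Plcb3 call was lost without scaling (-0.10, adjusted p = 0.406, edgeR). The median of the list was -0.59. Of 6 receptor kinases and arrestins, which switch off active receptors, Arrb1 (0.63), Grk6 (0.54) and Arrb2 (0.42) were higher and Adrbk2 (-2.80, SE 0.18, adjusted p = 7.10e-09, edgeR) was lower, with a list median of 0.23. The Arrb2 call was lost with upper-quartile scaling (0.29, adjusted p = 0.139, edgeR) and with the mouse as a replicate block (0.17, adjusted p = 0.305, edgeR). Adrbk2 lay between 1.71 and 3.09 RPKM in iWAT and between 11.4 and 15.5 RPKM in BAT.

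Genes of catecholamine uptake and breakdown were also compared. Of 6 described, 5 entered the fit, with 3 higher and 1 lower in iWAT, where 67.6% of all rows were called in either direction, and a median log2 fold change of 0.94. The sulfotransferase Sult1a1 (2.38, SE 0.16, adjusted p = 1.78e-08), the monoamine oxidase Maoa (1.30, SE 0.12, adjusted p = 2.97e-07) and the transporter Slc22a3 (0.94, SE 0.10, adjusted p = 1.78e-06) were higher in iWAT by edgeR's quasi-likelihood test. The transporter Slc22a2 was lower (-1.03, adjusted p = 0.0123, edgeR), a call lost without scaling (-0.77, adjusted p = 0.0526, edgeR). Maob, the other monoamine oxidase, was at 0.02 (SE 0.11, adjusted p = 0.888, edgeR), at 0.29 without scaling (adjusted p = 0.0113, edgeR) and at -0.11 with upper-quartile scaling (adjusted p = 0.414, edgeR). On shared rows, Maob was lower in eWAT than in BAT (-0.38, adjusted p = 0.0346) and higher in iWAT than in eWAT (0.49, adjusted p = 0.0398), and Slc22a3 was higher in eWAT than in BAT (0.67, adjusted p = 0.000273), all by edgeR. The Maob calls were lost with the mouse as a replicate block (adjusted p = 0.142 and 0.0572, edgeR) and without scaling (adjusted p = 0.397 and 0.0650, edgeR).

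Of 7 genes of catecholamine synthesis and release listed, only Slc18a2, a vesicular transporter, entered the iWAT and BAT fit (-0.26, SE 0.13, adjusted p = 0.0946, edgeR), so the list gave 0 calls there (0 also at an unadjusted p under 0.05), and 1 with upper-quartile scaling (Slc18a2 at -0.39, adjusted p = 0.0213, edgeR). Th, the rate-limiting enzyme, had 0 reads in iWAT, 1 in eWAT and 1 in BAT. Dbh, which makes noradrenaline, had 0 reads in all 18 samples. Slc18a2 lay between 0.404 and 0.656 RPKM in iWAT and between 0.429 and 0.579 RPKM in BAT, and its eWAT transcript row lay between 1.12 and 2.57 RPKM.

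**Figure D5:**
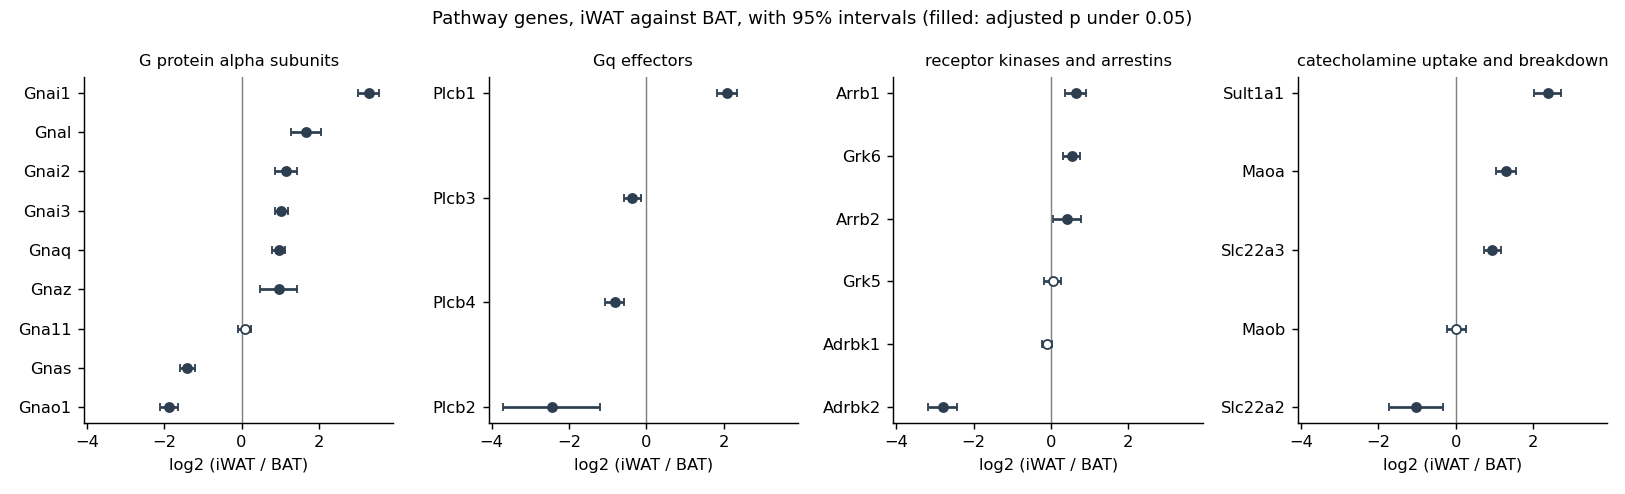
Log2 fold changes (iWAT over BAT) with 95% intervals of the pathway genes that entered the fit, by list, with filled circles for an adjusted p under 0.05. The Gi subunit Gnai1 lies highest in its list at 3.29, and Adrbk2 lies lowest in its list at -2.80.

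For eWAT the pathway lists could be fitted as a whole only by symbol, where the shift of all symbols applies. Of the 9 alpha subunits fitted, 8 were higher and 1 was lower in eWAT than in BAT, where 56.6% and 21.3% of all symbols were. Gnai1 (3.47), Gnai2 (1.97), Gnai3 (1.35) and Gnaq (1.27, the Gq subunit) lay above the shift of 0.60 and Gnao1 (-0.87) below it. Gnas, named after its value was seen, lay at the shift (0.63), whereas it was lower in iWAT than in BAT on merged rows. Its eWAT level of 103 to 149 RPKM rests on a transcript row and is not set against the other depots.

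Of the 6 receptor kinases and arrestins in that fit 4 were higher and 1 lower, near the shares of 56.6% and 21.3% over all symbols. Arrb2 (1.97), Arrb1 (1.77) and Grk6 (1.08) lay above the shift while Adrbk2 (-2.61) lay below it, as it did in iWAT against BAT. Of the 4 phospholipase C beta genes 2 were higher, Plcb1 (2.54) and Plcb4 (1.05), and Plcb3 (-0.49) was lower. Of the 5 uptake and breakdown genes fitted 3 were higher and 2 lower, with Maoa (2.27) and Sult1a1 (1.88) above the shift and Slc22a2 (-0.85) below it. Of the 7 synthesis and release genes 2 were fitted, and both were higher in eWAT than in BAT and lower in iWAT than in eWAT. These were the vesicular transporters Slc18a2 (1.81 and -1.98) and Slc18a1 (2.13 and -2.21), the latter with 131 reads over the eWAT samples, 40 in iWAT and 45 in BAT. Slc18a1 did not enter the iWAT and BAT fit, so its entry here needed eWAT samples and its calls are tied to the filter. For iWAT against eWAT, where the shift was -0.35, 1 alpha subunit was higher in iWAT (Gnal, 1.26) and 5 were lower, where 6.28% of all symbols were higher and 44.7% lower. Gnai1 (-0.08, SE 0.15, 95% interval -0.39 to 0.23, adjusted p = 0.686, edgeR's quasi-likelihood test) did not pass. Of the other lists, 1 Gq effector was higher and 3 were lower, 0 kinases or arrestins were higher and 4 were lower, and 3 uptake and breakdown genes were higher and 1 lower. The members of these lists rest on different rows in the 2 kinds of table, and a row effect cannot be told apart from a difference of eWAT.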

How the data were processed

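RNA-seq of 18 samples was analysed. Reads were prepared with a NEBNext Ultra kit, and the submitters' processing notes name cutadapt (version 1.16), HISAT2 (version 2.1.0) and the mm9 build. The authors made read counts per annotated row with the Genomatix Genome Analyzer, and whether counting used strand is not given in the sources used here. The deposited RPKM values are these counts scaled by the authors to row length and to the reads behind RPKM, 22929576 to 34512470 per sample, which were recovered from both columns. Columns of other kinds were not used.

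The receptors and gene lists were chosen with earlier results of these data known. A further member of the family and 1 gene of a pathway list are not reported here. Groups follow the labels. Main tests were edgeR (version 4.0.16) quasi-likelihood fits with TMM scaling and Benjamini-Hochberg adjustment over all rows with 10 reads in 6 samples, called at an adjusted p of 0.05. They were fitted to 53445 merged rows (iWAT, BAT) and to 27301 rows that are identical in all 18 tables (comparisons with eWAT). A secondary fit by symbol used the most-read eWAT transcript of 45151 symbols with a row-length offset. Standard errors were derived from the F statistic. The named genes were all receptors, Adipoq and Ucp1, the 3 genes nearest in profile to each receptor of at least 1 RPKM in iWAT or BAT, and up to 4 called genes in each direction per pathway list. Read ratios have exact 95% intervals, and a floor of 3 reads was used; both cover counting error only. Shares, ranges and profile distances carry no test.

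The number in each title was taken as the mouse, which the labels do not state, and the same number recurs in up to 3 depots. Same-numbered samples correlated between -0.139 and 0 (BAT and eWAT), -0.0414 and 0.0891 (BAT and iWAT) and -0.316 and 0.170 (eWAT and iWAT) in their deviations from the depot means, and a fit with this number as a replicate block was an alternative. Other alternatives were limma (version 3.58.1) with a pseudocount of 0.1 or 1 on log2 RPKM, DESeq2 (version 1.42.0), scaling, filters, eWAT transcripts and leaving out each sample. As the labels do not state separate animals, p-values measure the spread between these samples, which may be technical. Scripts were tested on simulated data.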

Additional observations from a re-analysis of the deposited data

Results flagged for a closer look

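The outlying-sample test was applied to 33 measures, each receptor's RPKM and each class share in each depot of 6 samples. A gap over range above Dixon's 95% critical value for 6 samples was found in 3, and chance alone would give about 1.65. The Adrb1 level in the iWAT sample of mouse 12 was 2.19 RPKM, while the other 5 lay between 0.910 and 1.32. The share of the Adra2 genes in the receptor sum was 0.314% in the iWAT sample of mouse 14, while the other 5 lay between 0.0576% and 0.1002%. That sample had the highest Adra2a and Adra2b read numbers of iWAT, 17 and 6 reads, and the highest endothelial and smooth muscle marker sums of iWAT, whose part in the share was not tested. The Adrb3 level in the eWAT sample of mouse 15 was 46.1 RPKM, while the other 5 lay between 133 and 169, and this sample had 1842 RPKM of macrophage markers, whose part was likewise not tested. Without it, the mean share of Adrb1 and Adrb3 in eWAT was 95.7% and that of the Adra1 genes 4.17%.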

How the results depend on the processing

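All 24 receptor means moved by less than 1 SD when RPKM was rescaled by TMM factors, as did the 8 eWAT means with the transcript of highest RPKM. The number of rows called for eWAT against BAT was 3888 and became 6021 without the read filter and 2457 among rows averaging at least 1 RPKM. For iWAT against BAT it was 13337 on merged rows and 3590 on shared rows with all 18 samples, where fewer rows were tested. Between iWAT and eWAT it fell from 737 to 477 with the mouse as a replicate block. Leaving out each sample in turn, a setting chosen in part after seeing the data, gave 12307 to 13291 calls for iWAT against BAT, 3419 to 3857 for eWAT against BAT and 570 to 808 for iWAT against eWAT. Without scaling, 65.8% of the calls of iWAT against BAT were higher in iWAT (50.3% in the main analysis), and 61.7% of those of eWAT against BAT were higher in eWAT (52.0%). Of the receptors, 7 instead of 3 passed for iWAT against BAT without the read filter, since 4 more entered. Between iWAT and eWAT on shared rows 1 passed, and 2 with limma on log2(RPKM + 0.1), with a range of 1 to 2 over the left-out samples. By symbol 2 passed, and 1 with the replicate block, 1 with the transcript of highest RPKM and 1 without the filter (a setting chosen after seeing the data), with a range of 1 to 4 over the left-out samples. The difference of Adra1b between iWAT and eWAT by symbol, -0.04, ranged from -0.17 to 0.075 over the left-out samples and changed sign without iWAT mouse 15 (0.075) or eWAT mouse 7 (0.04), 11 (0.03) or 15 (0.04). The cause of these changes was not tested beyond the number of rows and samples. The replicate block changed the call of no receptor other than Adra2a by symbol. Depth limits Adra1b and the Adra2 genes, which held at most 21 reads in any sample.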
